A study of Gallus gallus with 6 samples.

Results

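The neighbourhoods of Spry1 and Spry2 were each taken as a window of about 600 kb, the span over which AP1 sites had been predicted around the gene. In galGal4 the Spry1 window is chromosome 4, 52478299 to 53074894 (596.6 kb), and the Spry2 window is chromosome 1, 151598781 to 152196702 (597.9 kb). Every interval of the peak, enhancer, AP1 and conservation lists that shares at least 1 bp with a window was taken, which gave 421 regions for Spry1 and 358 for Spry2, or 779 of the 239645 regions in the whole series. Distances below are from the centre of the window, with negative values towards lower coordinates. The exons and start sites of both genes in galGal4 were not analysed here, so no region was assigned to a promoter, exon or intron. In the gene order of a later chick assembly, GRCg7b, SPRY1 stands between ANKRD50 and SPATA5, followed by FGF2, and SPRY2 stands between SLITRK1 and NDFIP2.

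Sprouty proteins are intracellular inhibitors of receptor tyrosine kinase signalling. FGF receptors activate the ERK/MAPK pathway, this raises Sprouty transcription, and the Sprouty proteins then dampen the same pathway, so that Spry1 and Spry2 form a negative feedback loop and are widely used as readouts of FGF activity. H3K27ac is an acetyl mark found at active promoters and enhancers. H3K27me3 is the trimethyl mark set by Polycomb on silenced chromatin. AP1 is a dimer of Jun and Fos family proteins whose activity can be raised by ERK signalling.

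FGF2-treated and control explants were compared, both in posterior pre-placodal ectoderm (pPPR) dissected from HH6 chick embryos, the tissue that gives rise to otic-epibranchial progenitors. FGF2 explants were cultured for 6 h in DMEM/N2 with 0.25 ng/µl FGF2, and control explants for 6 h in the medium without FGF2. About 100 tissues were pooled per condition, and nano-ChIP-seq, a chromatin immunoprecipitation for few cells with extra amplification, gave 1 library per condition and mark plus 1 input per condition. The source names of the FGF2 H3K27me3 and input samples end in +FGF3 and +FGF4, whereas their titles and culture conditions give FGF2, which was used here.

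The files hold peak positions without heights or read numbers, so the depth of the libraries is unknown. With 1 library on each side there is no replicate spread, no test was made, and each difference describes these 2 libraries. Intervals in brackets are 95% Wilson intervals, which cover counting error only and treat neighbouring peaks as independent. Over the whole series Homer, whose peaks are the main set here, called 37405 H3K27ac peaks with FGF2 and 32725 in control (1.14 times as many), and 32518 H3K27me3 peaks with FGF2 and 20827 in control (1.56 times as many).

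An element of 494 bp in the Spry1 window, Spry1-E (chromosome 4, 52768022 to 52768515), was cloned by the study as a reporter and probed for the acetyltransferase p300. Its oligonucleotides are shown because they fix which DNA within the acetylated stretch described below was handled. They are given 5′ to 3′ from the study's primer lists, the first pair for cloning and the second for p300 ChIP-qPCR.
Spry1-E cloning, forward: acgcctctctaccctcttt
Spry1-E cloning, reverse: gctggaagctagagccatatc
Spry1-E p300 qPCR, forward: cctctatccctttggttgtacg
Spry1-E p300 qPCR, reverse: gataatgtttgctctgcggttc

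The first comparison asked where H3K27ac differed between FGF2 and control explants around both feedback genes. In the Spry1 window Homer called 54 H3K27ac peaks covering 41.5 kb with FGF2, against 8 peaks covering 6.01 kb in control, a ratio of 6.75. In the Spry2 window it called 47 peaks covering 35.3 kb with FGF2, against 10 peaks covering 7.51 kb in control, a ratio of 4.70. Both ratios are far above that of the whole series. FGF2 peaks outnumbered control peaks in 11 of 12 steps of 50 kb around Spry1 and in 12 of 12 around Spry2. The exception, at -150 to -100 kb of Spry1, held 1 FGF2 peak and 2 control peaks. These step counts follow in part from the peak totals, and the share of such steps over the genome was not computed. In bins of 600 kb over the genome, 64.3% had more H3K27ac peaks with FGF2. Within 100 kb of the centre Homer called 21 FGF2 peaks and 1 control peak around Spry1, a higher ratio than in the whole window. Around Spry2 it called 18 FGF2 and 5 control peaks there, a lower ratio. The longest stretch without an H3K27ac peak around Spry1 was 52.4 kb with FGF2, against 174 kb in control. Around Spry2 it was 45.6 kb with FGF2, against 220 kb in control.

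**Figure D1:**
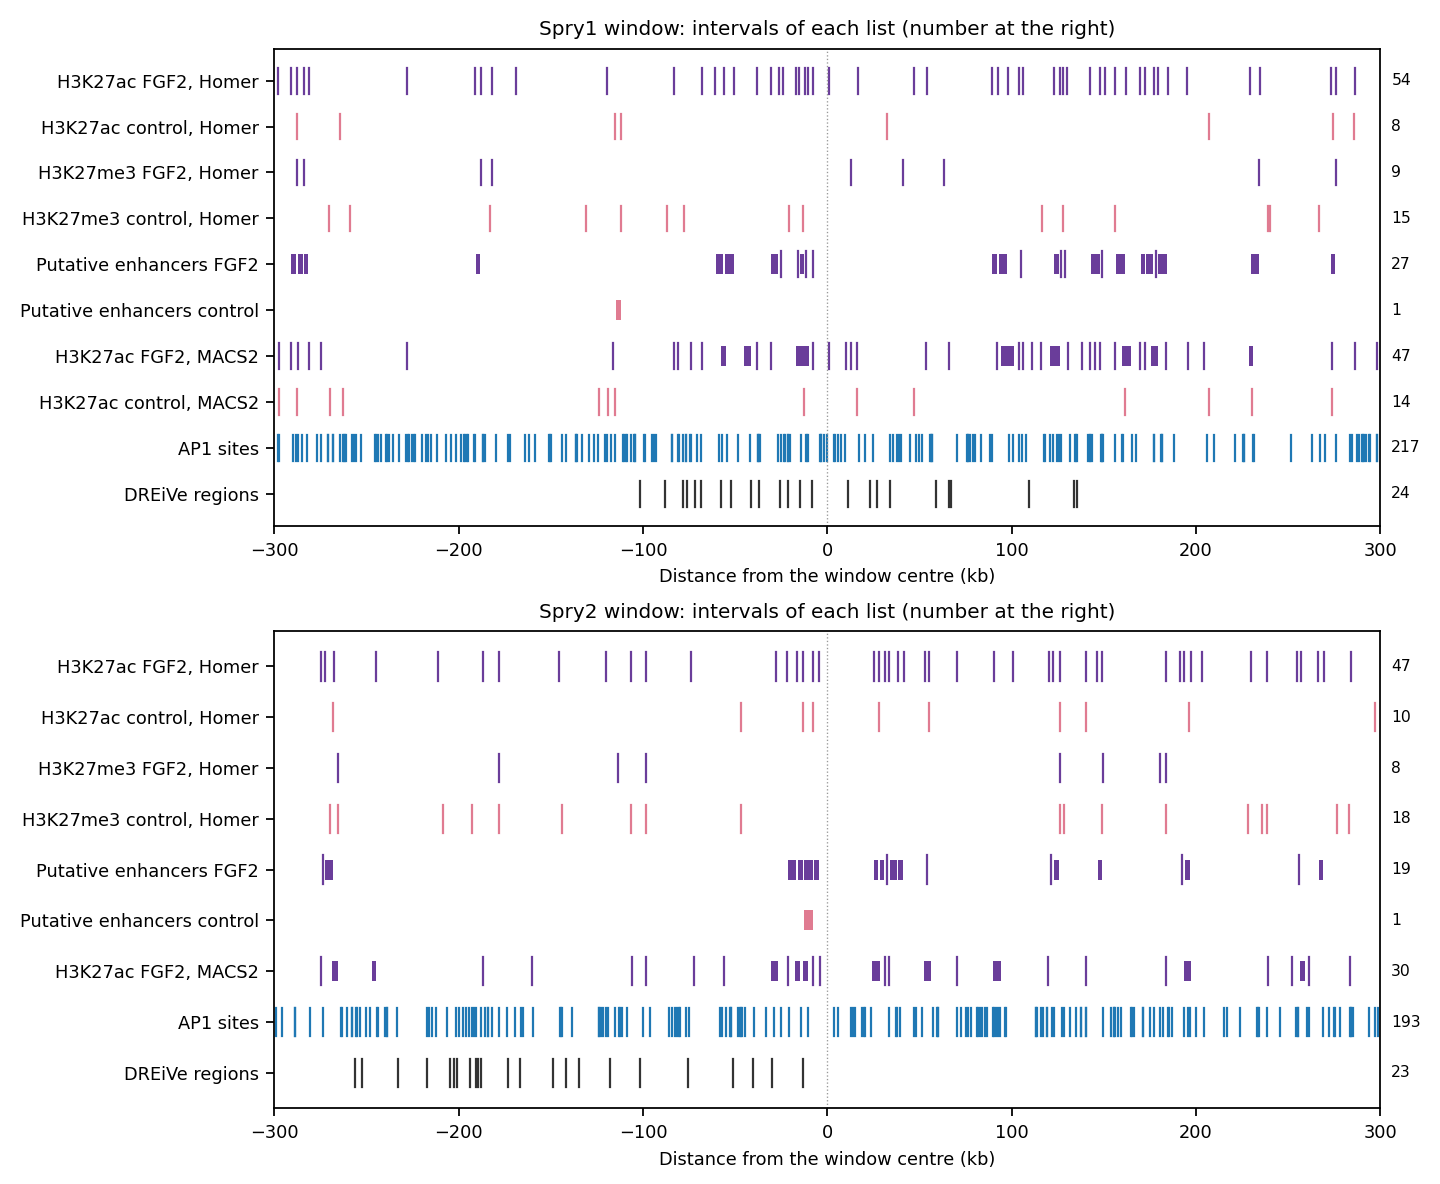
Positions of every interval in the Spry1 (top) and Spry2 (bottom) windows, with the distance from the window centre in kb on the horizontal axis, 1 line per list, FGF2 in violet and control in pink. Intervals under 2 kb are drawn as thin lines, wider ones to scale, and the number at the right counts each list. The 54 and 47 FGF2 H3K27ac peaks spread over the whole windows, while the 8 and 10 control peaks leave long gaps.

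Few of the places acetylated with FGF2 were shared with control, which the peak numbers largely fix. With 8 control peaks around Spry1 and 10 around Spry2, most of the 54 and 47 FGF2 peaks could have no counterpart. Of the FGF2 H3K27ac peaks, 52 of 54 around Spry1 (96.3%, 87.5 to 99%) and 40 of 47 around Spry2 (85.1%, 72.3 to 92.6%) had no control peak over them, against a background of 64.4% of the FGF2 peaks in the whole series. In the other direction, 6 of 8 control peaks around Spry1 (75%, 40.9 to 92.9%) and 3 of 10 around Spry2 (30%, 10.8 to 60.3%) had no FGF2 peak, against a background of 59.3%. The 2 windows thus differed in how many control peaks had an FGF2 counterpart, 7 of the 10 around Spry2 and 2 of the 8 around Spry1. The Spry1 counterparts lie near the ends of the window, at -287.8 and 286.1 kb. Those of Spry2 include a pair flanking its shared enhancer at -13.0 and -7.5 kb, and others at 28.1, 55.3, 126.2 and 140.1 kb. The remaining one is at -267.9 kb.

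The caller changed the size of the Spry1 difference but not its direction. MACS2 called 47 H3K27ac peaks covering 71.2 kb with FGF2 and 14 covering 10.3 kb in control, a ratio of 3.36, and 38 of the 54 FGF2 Homer peaks (70.4%) were also MACS2 peaks, against 58.3% in the whole series. Over the whole series MACS2 went the other way, with 28219 H3K27ac peaks with FGF2 and 35892 in control, a further 4432 control peaks having rounded positions. Of the 8 control Homer peaks around Spry1, 4 were also MACS2 peaks, against 70.7% of the control peaks outside the rounded positions. Near the Spry1 centre the callers differed in control. MACS2 called control H3K27ac peaks at -12.6, 16.3 and 47.0 kb, each over an FGF2 Homer peak. It did not call the only control Homer peak within 100 kb, at 32.6 kb. On chromosomes 1, 2 and 3 the control MACS2 lists round every position past 100 Mb to the nearest Mb, which covers the Spry2 window. With FGF2, MACS2 called 30 H3K27ac peaks covering 54.4 kb in that window, and 28 of the 47 FGF2 Homer peaks (59.6%) were among them. Over the whole megabase that holds the window, the rounded starts give 37 MACS2 peaks with FGF2 and 13 in control, beside 57 and 13 Homer peaks.

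Joining H3K27ac peaks within 3 kb of each other gave 37 clusters with FGF2 and 7 in control around Spry1, and 32 with FGF2 and 10 in control around Spry2. These numbers follow in part from the larger number of FGF2 peaks, and were not compared with the spacing expected at that number. Around Spry1, 25 of the 37 FGF2 clusters were single peaks and 2 had at least 3 peaks. Around Spry2, 21 of the 32 were single peaks and 3 had at least 3, whereas all 10 control clusters were single peaks. The largest Spry1 cluster runs from 52759341 to 52769557 (10.2 kb, centred at -12.1 kb) and holds 5 FGF2 peaks, 4 FGF2 enhancers, 4 AP1 sites and 2 conserved regions, with 0 control H3K27ac peaks and 1 control H3K27me3 peak by Homer. MACS2 called a control H3K27ac peak inside it, at 52763526 to 52764419. The next, from 52899017 to 52907064 at 126.4 kb, holds 4 FGF2 peaks and 3 enhancers. The largest control cluster around Spry1 is a pair of peaks, 52661250 to 52665195 at -113.4 kb, which no FGF2 peak overlaps. The 3 largest FGF2 clusters around Spry2 are 151922496 to 151931764 with 4 peaks, and 152017458 to 152024322 and 152088448 to 152095484 with 3 peaks each.

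Spry1-E, at -8.3 kb, lies in the largest Spry1 cluster only through a Homer entry described below. An FGF2 MACS2 H3K27ac peak covers 100% of it, and the nearest control MACS2 H3K27ac peak is 3.60 kb away. The element holds 1 conserved region and 0 predicted AP1 sites. In the paper, Spry1-E drove reporter activity in otic progenitors of electroporated embryos. Flag-tagged p300, also introduced by electroporation, bound it in dissected otic tissue unless a dominant-negative Fos was present. That p300 assay was in embryos and not in the explants described here. The paper places AP1 motifs near the enhancers that were tested. The Homer peak over Spry1-E is 52767724 to 52769557 (1834 bp), and the putative enhancer is 52767821 to 52769341 (1521 bp). Both are the last entries of the FGF2 Homer and FGF2 enhancer lists and stand outside the order of those lists. Without these 2 entries the Spry1 window holds 53 FGF2 H3K27ac peaks and 26 FGF2 enhancers, and its largest cluster has 4 peaks. The cluster beside Spry1-E then ends at 52766254, short of the element, which no other FGF2 Homer peak overlaps. The Homer H3K27ac peaks nearest to the window centre were an FGF2 peak at 0.314 kb (52776910 to 52777660) and a control peak at 32.2 kb (52808782 to 52809532) for Spry1. By MACS2 they were at 0.587 kb with FGF2 and 12.2 kb in control. For Spry2 the nearest Homer peaks were an FGF2 peak at 3.94 kb (151893046 to 151893796) and a control peak at 7.13 kb (151889861 to 151890611).

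**Figure D2:**
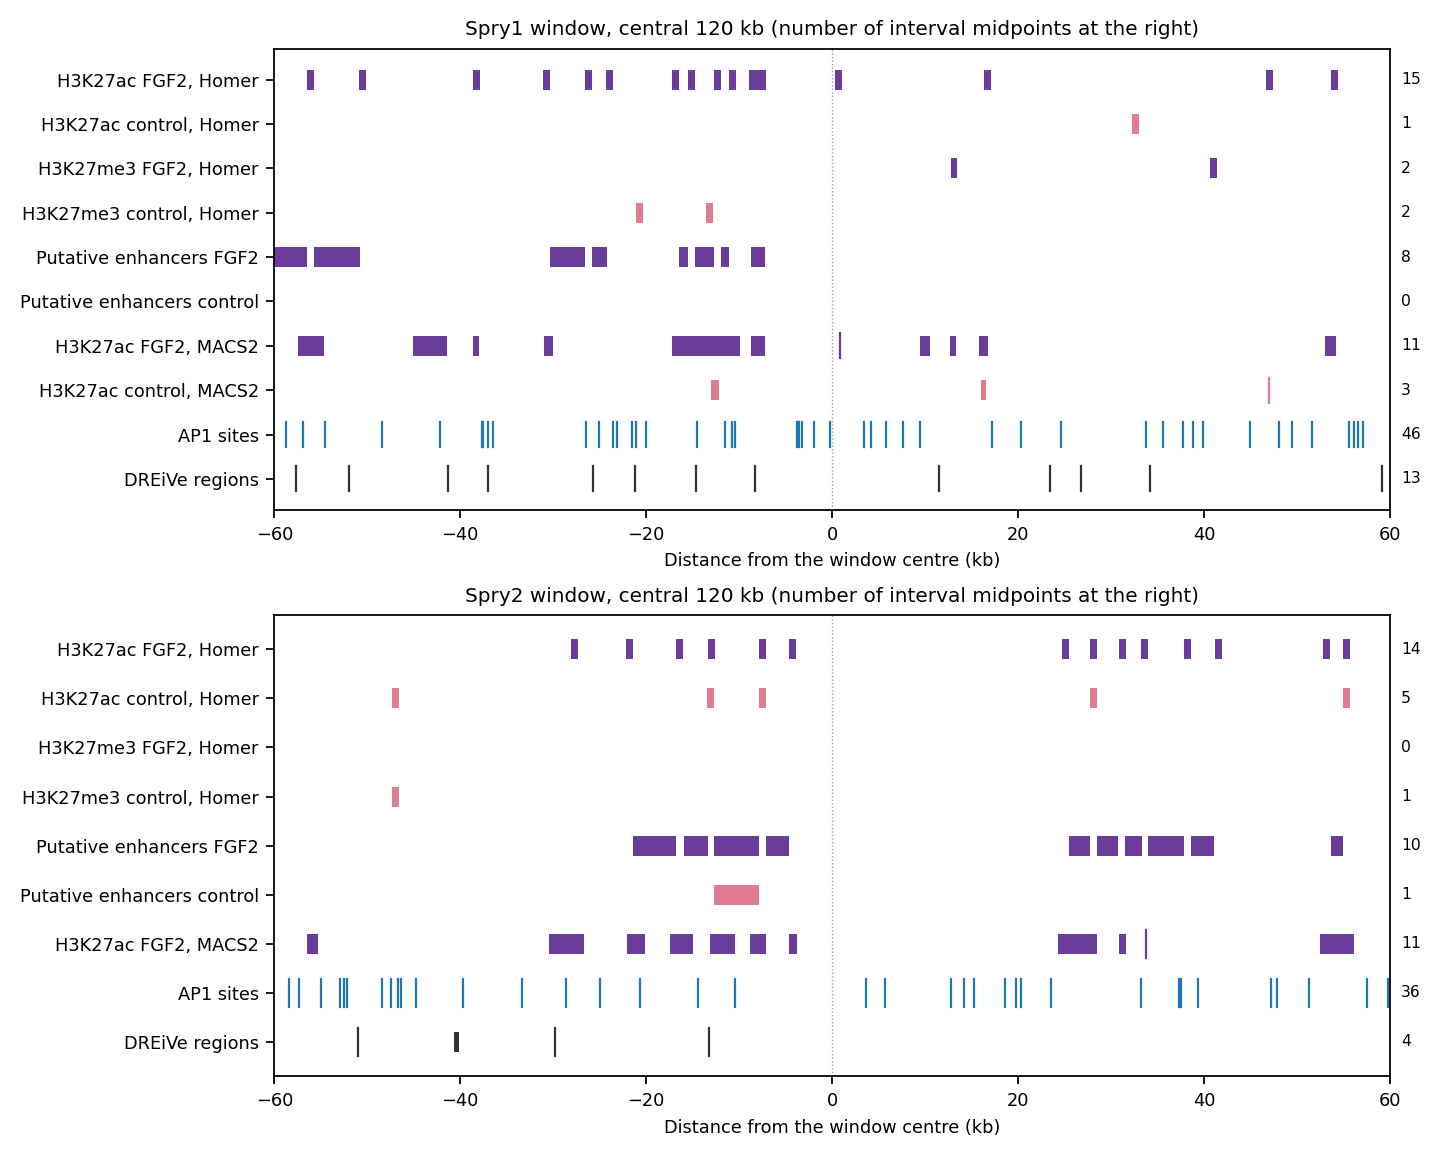
The central 120 kb of the Spry1 (top) and Spry2 (bottom) windows, with the lists and colours of the whole-window map and interval midpoints counted at the right. Here all but the narrowest intervals are drawn to scale. The run of FGF2 H3K27ac peaks and enhancers at -17 to -7 kb of Spry1 faces no control Homer peak, while at -13.0 and -7.5 kb of Spry2 both conditions have a peak.

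The second comparison asked whether H3K27me3 differed in the same windows. By Homer it was called less often with FGF2, with 9 peaks (6.76 kb) against 15 in control (11.3 kb) around Spry1, a ratio of 0.6, and 8 peaks (6.01 kb) against 18 in control (13.5 kb) around Spry2, a ratio of 0.444. This runs against the whole series, where FGF2 had more. By steps of 50 kb, FGF2 had fewer peaks in 6 of 12 around Spry1, as many in 3 and more in 3. Around Spry2 it had fewer in 8 of 12, as many in 3 and more in 1. The share of such steps over the genome was not computed for this mark either.

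The H3K27me3 difference was not seen with MACS2, whose lists for this mark differ greatly in length. That caller gave 3 peaks with FGF2 and 2 in control around Spry1, and 9 with FGF2 around Spry2, where control positions are rounded. In the megabase around Spry2 MACS2 gave 20 with FGF2 and 4 in control, the opposite direction, and Homer 27 with FGF2 and 29 in control, so that outside the window the Homer surplus was on the FGF2 side. Over the whole series MACS2 called 26538 H3K27me3 peaks with FGF2 and 923 in control, a further 174 control peaks having rounded positions. With lists so unequal, more FGF2 than control peaks would be found in most places, so the MACS2 counts cannot decide the direction here. The control list held 4.82% of the control Homer peaks outside the rounded positions, against 47.4% for FGF2. Within the windows 1 of 9 and 5 of 8 FGF2 Homer peaks were also MACS2 peaks, and 2 of 15 control peaks around Spry1.

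**Figure D3:**
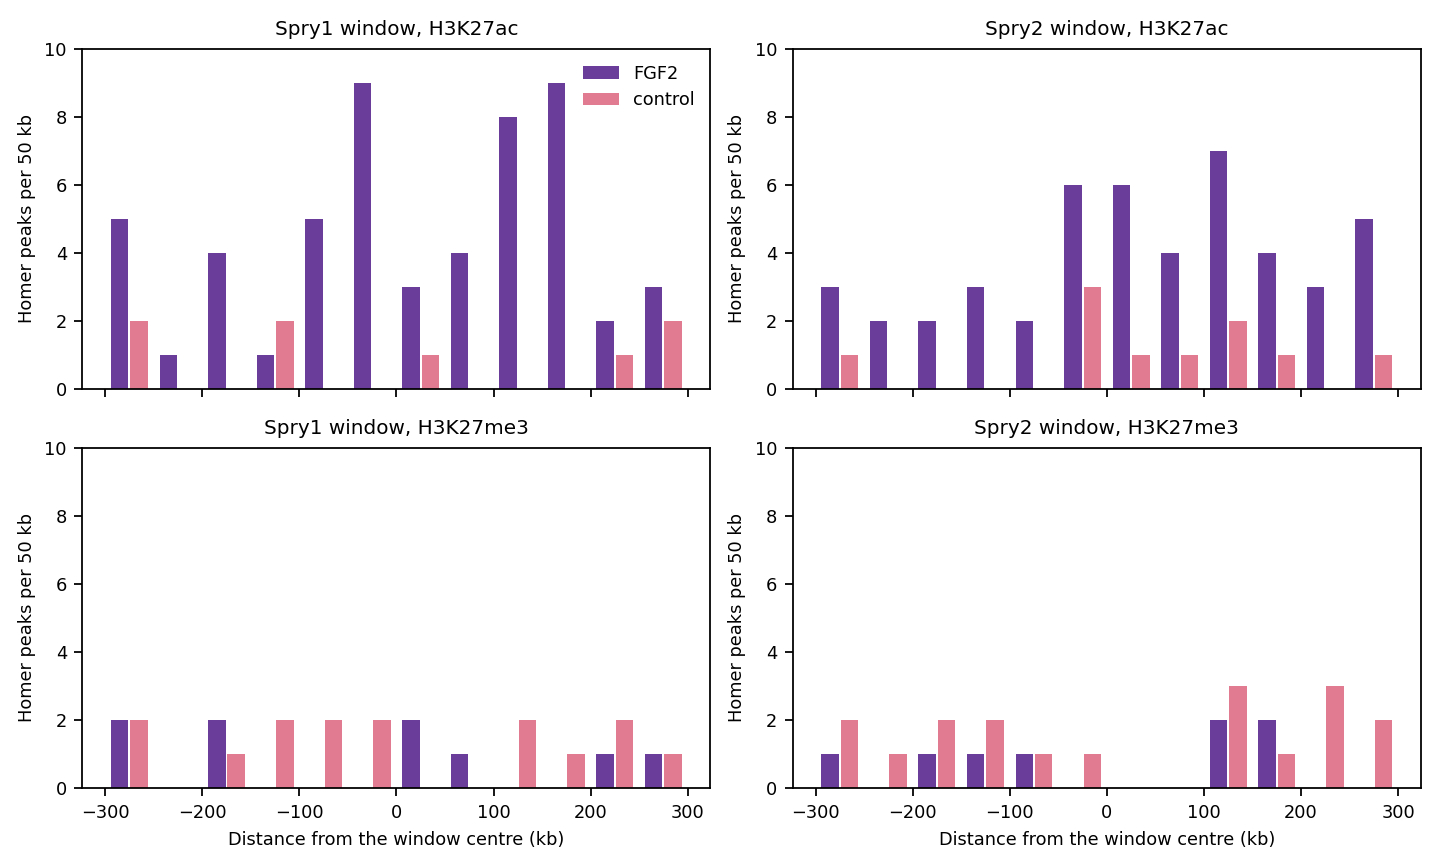
Homer peaks of H3K27ac (top) and H3K27me3 (bottom) in 12 steps of 50 kb across the Spry1 (left) and Spry2 (right) windows, FGF2 in violet left of control in pink, against the distance from the window centre in kb. FGF2 bars are taller for H3K27ac in 11 and 12 of the 12 steps and shorter for H3K27me3 in 6 and 8.

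Some H3K27me3 peaks were shared between the conditions around Spry2 and none around Spry1, where few would be shared at the rate of the whole series. Around Spry1, 9 of 9 FGF2 (70.1 to 100%) and 15 of 15 control peaks (79.6 to 100%) lay in 1 condition alone. The backgrounds were 86.5% and 78.9%, so both shares were close to them. Around Spry2, 6 of the 8 FGF2 peaks lay over a control peak, leaving 2 of 8 (25%, 7.15 to 59.1%) and 12 of 18 control peaks (66.7%, 43.7 to 83.7%) without a counterpart. The FGF2 share was below its background, while the interval of the control share holds its background. The nearest H3K27me3 peak to the Spry2 centre was at 97.9 kb with FGF2 and 46.6 kb in control. For Spry1 it was at 12.8 kb on opposite sides in the 2 conditions, 52789355 to 52790105 with FGF2 and 52763052 to 52763802 in control.

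H3K27ac and H3K27me3 peaks overlapped at a few places. With FGF2, 6 of 54 H3K27ac peaks around Spry1 (11.1%, 5.19 to 22.2%) and 5 of 47 around Spry2 (10.6%, 4.63 to 22.6%) lay over an FGF2 H3K27me3 peak, against a background of 17.4%. In control, 1 of 8 and 2 of 10 H3K27ac peaks lay over a control H3K27me3 peak, against 8.84%, and 1 of 8 and 1 of 10 over an FGF2 one, against 7.2%. Read from the other mark, 6 of 9 and 5 of 8 FGF2 H3K27me3 peaks lay over an FGF2 H3K27ac peak, against 20% in the whole series, and 1 of 9 and 1 of 8 over a control H3K27ac peak, against 7.24%. Control H3K27me3 peaks lay over control H3K27ac in 1 of 15 and 2 of 18 cases, against 13.9%. The windows hold few H3K27me3 peaks, and these shares rest on 17 peaks with wide intervals (35.4 to 87.9% and 30.6 to 86.3%).

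The overlapping places of Spry1 by Homer lay at least 181 kb from the centre, at 52488406 to 52489156, 52492202 to 52492952, 52588371 to 52589121, 52594487 to 52595237, 53010706 to 53011456 and 53052192 to 53052942 (H3K27ac coordinates), and 0 of the 6 had a control H3K27me3 peak. By MACS2 they lay elsewhere, with 2 FGF2 H3K27ac peaks over FGF2 H3K27me3 near the centre, at 52789232 to 52789933 and 52792397 to 52793372 (13.0 and 16.3 kb). Those of Spry2 by Homer were at 151719366 to 151720116, 151799248 to 151799998, 152023572 to 152024322, 152046624 to 152047374 and 152081325 to 152082075, and 5 of the 5 had a control H3K27me3 peak as well, against a background of 16.4%. In all, 7 of 47 FGF2 H3K27ac peaks around Spry2 (14.9%, 7.41 to 27.7%) lay where control had H3K27me3, against 5.91% in the whole series, and 2 of 54 around Spry1 (3.70%, 1.02 to 12.5%). Of these 7 Spry2 places, 5 had an H3K27me3 peak with FGF2 as well. At 1 of them, 152023572 to 152024322, all 4 libraries had a peak, as at 0.69% of the FGF2 H3K27ac peaks of the whole series.

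The third comparison concerned putative enhancers, which the authors defined as stretches flanked by H3K27ac peaks and free of H3K27me3. The FGF2 list has 27 in the Spry1 window (73.3 kb) and the control list 1 (2.44 kb). In the Spry2 window the FGF2 list has 19 (48.8 kb) and the control list 1 (4.80 kb). Over the whole series the deposited lists hold 12198 with FGF2 and 10674 in control. The paper counted far fewer putative enhancers genome-wide, so these lists are not the set that it reports. None of the 27 FGF2 enhancers of Spry1 and 1 of the 19 of Spry2 overlapped a control enhancer, so 27 of 27 (87.5 to 100%) and 18 of 19 (94.7%, 75.4 to 99.1%) were in the FGF2 list alone, against a background of 63.8%. A control H3K27ac peak overlapped 2 of the 27 (7.41%) and 7 of the 19 (36.8%), against 44.5%. An enhancer starts directly beside an FGF2 peak, so a control peak slightly offset from that peak reaches into it. Most of the Spry2 overlaps were such edges, for example control 151884314 to 151885064 against an enhancer ending at 151884331. Control peaks wholly inside an enhancer were 152093410 to 152094160 around Spry2 and 53050521 to 53051271 around Spry1. Because the enhancers are defined by flanking H3K27ac peaks, their numbers follow in part from the peak numbers and are not independent of them. With 1 control enhancer per window, nearly every FGF2 enhancer had to be in the FGF2 list alone.

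The enhancer shared by both lists lies at -10.3 kb of Spry2, 151885083 to 151889891 with FGF2 and 151885065 to 151889860 in control, and holds 1 AP1 site. The control enhancer there overlapped the edge of an FGF2 H3K27ac peak and the control enhancer of Spry1 overlapped none, against 47.9% of the control list. The Spry1 one had no FGF2 enhancer over it, as 58.7% of the control list. A conserved region, 151884332 to 151884610, lies under the H3K27ac peak at its lower end in both conditions. The only control enhancer of the Spry1 window, 52662001 to 52664444 at -113.4 kb, holds 0 AP1 sites and overlapped a control H3K27me3 peak.

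Of the FGF2 enhancers around Spry1, those with an AP1 site or a conserved region were led by width by 52720828 to 52725769 (4942 bp, 1 AP1 site and 1 conserved region) at -53.3 kb. It was followed by 52933182 to 52938053 (4872 bp, 2 AP1 sites), 52956212 to 52960894 (4683 bp, 3 sites), 52919687 to 52924337 (4651 bp, 1 site) and 53006248 to 53010705 (4458 bp, 2 sites). Next came 52716117 to 52720076 (3960 bp, 2 sites and 1 conserved region), directly before the widest. The densest was 52925089 to 52926578 (1490 bp), which holds 4 AP1 sites and was singled out after its values were seen. The enhancer 52750775 to 52752350 at -25.0 kb holds 1 AP1 site and 1 conserved region and overlaps no FGF2 MACS2 peak. An element at almost the same position showed no activity in the paper's reporter assay. Around Spry2 the widest with an AP1 site or conserved region, after the shared one, were 151876334 to 151881002 (4669 bp, 1 site), 151931765 to 151935570 (3806 bp, 2 sites), 152020612 to 152023571 (2960 bp, 1 site) and 152091886 to 152094733 (2848 bp, 2 sites). The shared enhancer and its neighbours form an almost unbroken chain from 151876334 to 151893045, with H3K27ac peaks between 4 enhancers.

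Not every enhancer in the lists fits the stated definition. By width, 17 of 27 (63.0%) around Spry1 and 15 of 19 (78.9%) around Spry2 are up to 3 kb, against 63.6% of the whole FGF2 list. An FGF2 H3K27me3 Homer peak touches 4 of 27 around Spry1 and 0 of 19 around Spry2, against 12.7%. A control H3K27me3 peak touches 3 of 27 and 3 of 19, against 6.05%.

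The fourth comparison concerned predicted AP1 sites, 217 in the Spry1 window and 193 in the Spry2 window. These are sequence predictions common to both conditions, so only the H3K27ac around them differs. A larger number of FGF2 peaks brings any set of positions closer to a peak, and the share expected at that number was not computed. Within 5 kb of an H3K27ac peak lay 126 sites with FGF2 (58.1%, 51.4 to 64.4%) and 34 in control (15.7%, 11.4 to 21.1%) around Spry1. Around Spry2 they were 107 with FGF2 (55.4%, 48.4 to 62.3%) and 33 in control (17.1%, 12.4 to 23.0%). Over all 1370 AP1 sites of the 7 windows in that list the shares were 55.3% with FGF2 and 38.9% in control, and over the 960 sites of the other 5 windows 54.6% with FGF2 and 48.5% in control. With FGF2 both windows were therefore near the background, and their difference from the other windows was in control. The median distance from an AP1 site to the nearest H3K27ac peak was 3.61 kb with FGF2 against 29.6 kb in control for Spry1, 4.42 kb against 19.4 kb in control for Spry2, and 4.20 kb against 5.22 kb in control for the other windows.

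**Figure D4:**
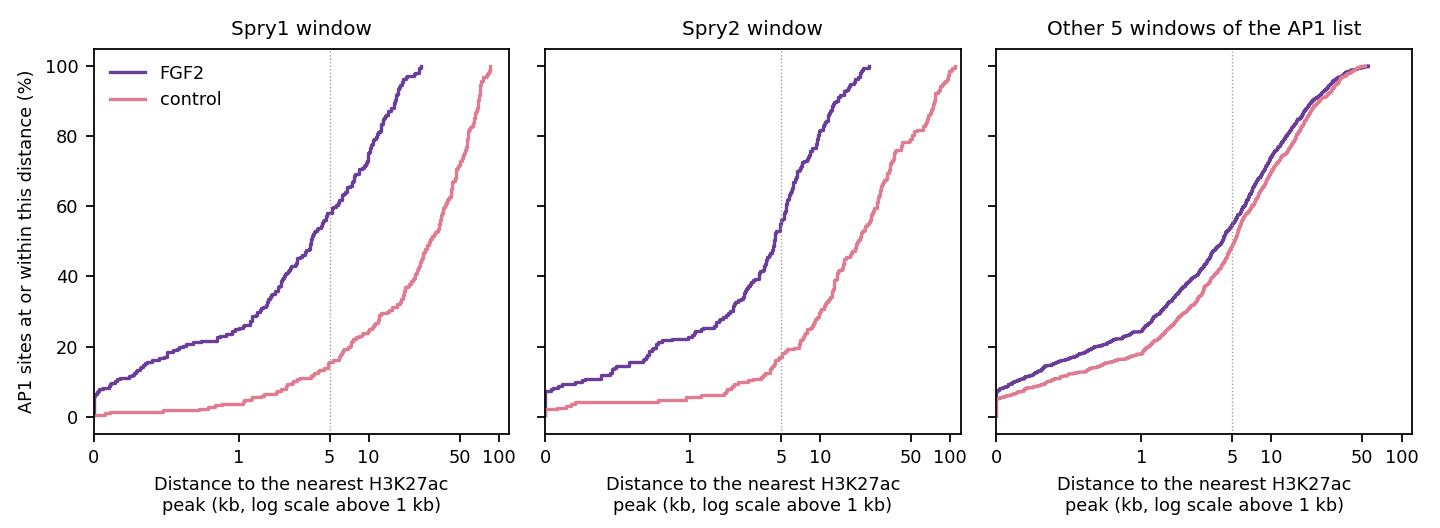
Share of AP1 sites (vertical axis, percent) whose nearest Homer H3K27ac peak lies at or within the distance on the horizontal axis (kb, logarithmic above 1 kb), for the Spry1, Spry2 and other 5 windows, FGF2 in violet and control in pink. The dotted line marks 5 kb, where the FGF2 curves reach 58.1%, 55.4% and 54.6% and the control curves 15.7%, 17.1% and 48.5%.

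AP1 sites were not concentrated inside the FGF2 enhancers of these windows. FGF2 enhancers held 28 of the 217 sites around Spry1 (12.9%) and 13 of the 193 around Spry2 (6.74%), against a background of 11.6%. Control enhancers held 0 and 1, against 6.35%. Per kb this is 0.382 sites inside and 0.361 outside FGF2 enhancers around Spry1, and 0.266 inside and 0.328 outside around Spry2. At least 1 site was present in 18 of the 27 FGF2 enhancers of Spry1 and 11 of the 19 of Spry2, beside 102 of 190 (53.7%) over all 7 windows.

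The fifth comparison concerned conserved regions found by DREiVe, a search for sequence patterns kept between vertebrate species. There are 24 around Spry1, between -101.9 and 135.6 kb, and 23 around Spry2, all below the centre, between -256.3 and -13.1 kb. They are 97 to 447 bp and 69 to 486 bp long. Around Spry1, 17 of the 24 lay within 5 kb of an H3K27ac peak with FGF2 (70.8%, 50.8 to 85.1%) and 1 in control (4.17%, 0.739 to 20.2%). Around Spry2 they were 11 of the 23 with FGF2 (47.8%, 29.2 to 67.0%) and 2 in control (8.70%, 2.42 to 26.8%). Over the whole list of 356 the shares were 31.7% with FGF2 and 19.9% in control. As for the AP1 sites, the difference between the conditions follows in part from the larger number of FGF2 peaks. An FGF2 enhancer overlapped 5 of the 24 regions of Spry1 (20.8%) and 0 of the 23 of Spry2, against 5.34%, and a control enhancer none in either window, against 2.53%. Directly under an H3K27ac peak lay 3 and 1 regions with FGF2, against 3.09%, and 0 and 1 in control, against 2.53%. Around Spry1 both FGF2 counts include 1 region, in Spry1-E, that is reached only by the last list entries that stand out of order. The side of Spry2 without conserved regions held 29 of its 47 FGF2 H3K27ac peaks and 13 of its 19 FGF2 enhancers.

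Set beside the rest of the series, the windows stand far from the usual balance of the 2 conditions. In 1659 bins of 600 kb across the genome the median number of H3K27ac peaks was 17 with FGF2 and 13 in control, and the median difference was 2. Bins with at least 2-fold more H3K27ac peaks with FGF2 made up 13.6% of the 1510 bins with at least 8 peaks, for putative enhancers they made up 20.5% of 743, and both windows are past that fold on both counts. The excess of 46 around Spry1 was above every bin, the highest of which had 45, and the excess of 37 around Spry2 was reached by 1 bin. With the bin edges moved by 300 kb the highest excess among bins that do not touch the windows was 39, and 2 such bins reached 37. The windows were drawn around genes known to respond to FGF, and the bins were not drawn around any gene, so these ranks are a description.

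For H3K27me3 the median was 17 peaks with FGF2 and 11 in control per bin. FGF2 had fewer in 11.3% of bins, at least 2-fold fewer in 0.242% of 1651, and no bin had a deficit of 10 as Spry2 did, although 3 bins away from the windows did with the edges moved. The deficit of 6 of Spry1 was reached by 13 bins. It was exceeded in the chromosome 6 window of the AP1 list, with 22 H3K27me3 peaks with FGF2 and 30 in control. That window had 61 H3K27ac peaks with FGF2 and 56 in control. Of the 205 bins with at least 2-fold more H3K27ac with FGF2, 22 (10.7%) had fewer H3K27me3 peaks with FGF2, near the 11.3% of all bins. The lower H3K27me3 number of both Sprouty windows holds by Homer only. MACS2 counts went the other way, for Spry2 over its megabase. Over the whole series MACS2 called 923 H3K27me3 peaks in control against 26538 with FGF2, so its counts cannot decide the direction. In the other 5 windows of the AP1 list the H3K27ac ratio of FGF2 to control ran between 0.968 and 2.37 and the H3K27me3 ratio between 0.733 and 1.52. For putative enhancers 1 of these windows, on chromosome 4, came close to the Sprouty windows, with 28 in the FGF2 list and 4 in the control list, and the ratios of the other 4 ran between 0.923 and 1.86.

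**Figure D5:**
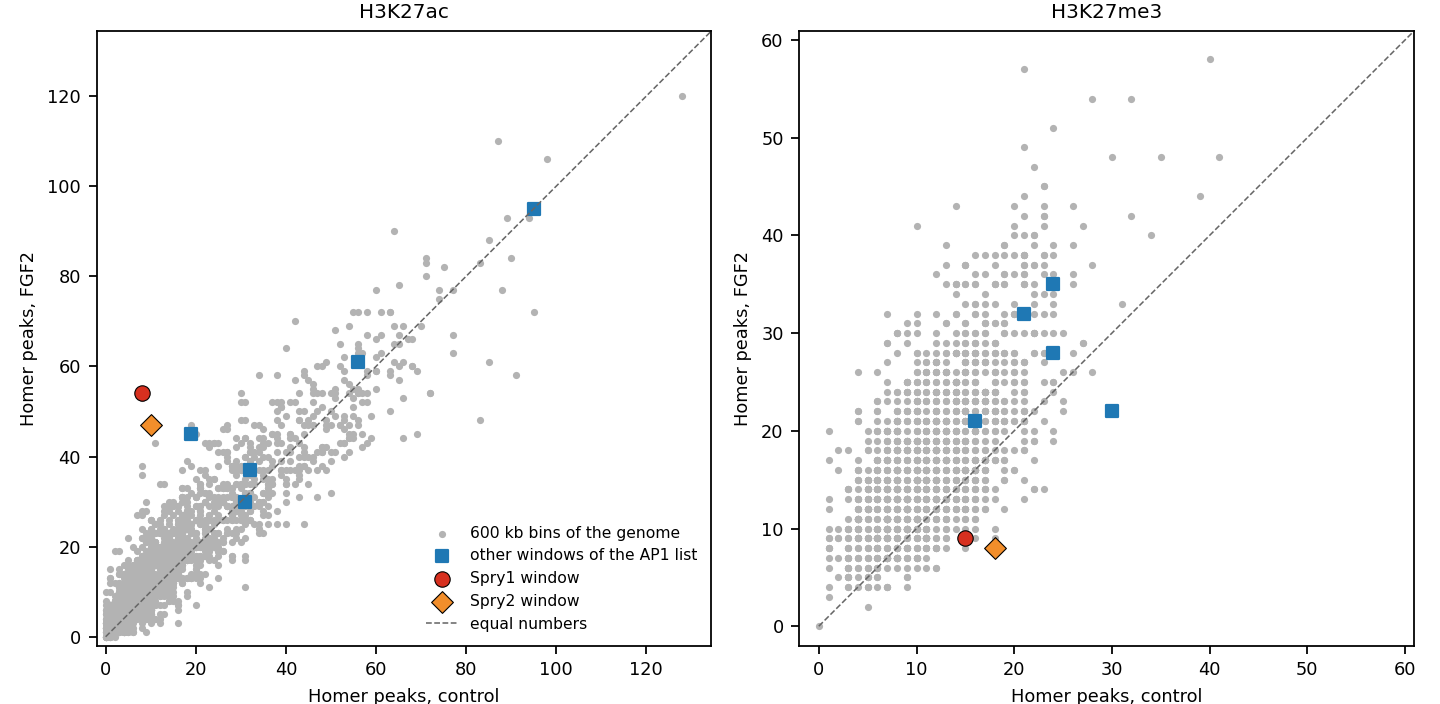
Homer peaks of H3K27ac (left) and H3K27me3 (right) with FGF2 (vertical axis) against control (horizontal axis) in 600 kb bins of the genome (grey), the other 5 windows of the AP1 list (blue squares), and the Spry1 (red circle) and Spry2 (orange diamond) windows. The dashed line marks equal numbers: for H3K27ac both windows lie above it, at 54 against 8 and 47 against 10, and for H3K27me3 below it, at 9 against 15 and 8 against 18.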

How the data were processed

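Homer and MACS2 were run by the authors on uniquely placed Novoalign alignments (galGal4) of trimmed reads, with the input of each condition as background. Of the deposited files only the interval positions were used. The score column of the deposited Homer lists holds the same value, 1, for every peak, and no peak list of an input library was used. The lists named Homer enhancers hold the Homer H3K27ac peaks, less the last FGF2 entry over Spry1-E (37404 of 37405), and were not used. Positions were read as starting at 0 and are given from 1. Overlapping AP1 entries (1996) were joined to 1370 sites, and 898 DREiVe entries to 356 regions. Rounded positions removed 4432 H3K27ac and 174 H3K27me3 entries from the control MACS2 lists, and 477 blank lines were skipped. Overlap means at least 1 bp.

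Members, windows and lists were chosen with earlier results of these data known. Regions were named by rule. Up to 10 enhancers per window were taken by width, with an AP1 site or conserved region or shared by both conditions, and the text gives the widest. The others were the 3 largest H3K27ac clusters per condition, up to 6 places with both marks and the peaks nearest to each centre. The cloned element and the element that the paper found inactive were added. Other genes of the FGF feedback pathway were not analysed here, since no galGal4 annotation was used. The overlap, gap and distance steps were tested on simulated peaks. Scripts ran under Python 3.11.15 with scipy 1.17.1, numpy 2.4.6 and, for plots, matplotlib 3.10.9. Alternatives changed the caller, overlap, distance, gap, window size and single list entries.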

Additional observations from a re-analysis of the deposited data

How the results depend on the processing

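Of 70 alternatives, 43 left the value close to its main one, 25 moved it and 2 turned its direction. No paired analysis was possible because there is 1 library per condition and mark. Both turned directions were H3K27me3 by MACS2, with FGF2 minus control 1 in the Spry1 window and 16 in the megabase of Spry2, a count from rounded positions chosen after seeing the data. The control MACS2 list of that mark is very short, so neither turn can decide the direction. The H3K27ac difference around Spry1 was 33 with MACS2, 20 within 100 kb of the centre and 11 within 50 kb. The ratios of FGF2 to control were 3.36, 21 and 12 in that order, beside 6.75 in the main count. The ratio was thus lower with MACS2 over the window, and higher near the centre by Homer. A MACS2 ratio near the centre was not computed. Around Spry2 the difference was 24 with MACS2 over the megabase (ratio 2.85) and 8 within 50 kb (ratio 3), beside a main ratio of 4.7. Within 50 kb the H3K27me3 difference was 0 for Spry1 and -1 for Spry2. The share of FGF2 H3K27ac peaks around Spry1 without a control peak was 85.1% with MACS2 and 83.3% with control peaks of either caller. The enhancer difference around Spry1 was 14 with gaps derived again up to 3 kb, 23 up to 5 kb, 16 up to 3 kb with H3K27me3 ignored and 10 within 100 kb. Around Spry2 it was 15 for gaps up to 3 kb, with or without H3K27me3, and 9 within 100 kb. With gaps up to 3 kb and free of H3K27me3 there were 14 with FGF2 and 0 in control around Spry1. Around Spry2 there were 15 with FGF2 and 0 in control. Under that rule the shared enhancer and both control enhancers were absent. For AP1 sites the FGF2 minus control share in percentage points was 21.2 within 1 kb, 50.7 within 10 kb and 37.8 with MACS2 for Spry1, and 17.1 within 1 kb and 51.8 within 10 kb for Spry2. For conserved regions it was 20.8 within 1 kb for Spry1, and 4.35 within 1 kb and 56.5 within 10 kb for Spry2. With MACS2, 4.26% of FGF2 H3K27ac peaks around Spry1 overlapped H3K27me3. Intervals wholly inside the windows, also chosen after seeing the data, changed no direction. Peak heights and depth are unknown, which limits all counts to presence or absence of a call.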

Other observations

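MACS2 H3K27ac peaks vary in width. Around Spry1 their median width was 1010 bp with FGF2 (47 peaks) and 503 bp in control (14 peaks), beside 990 bp with FGF2 and 860 bp in control over the whole series, so the FGF2 width was near the usual one and the control width below it. Around Spry1 the widest was 7275 bp with FGF2 and 1767 bp in control. The widest FGF2 peak, 52759375 to 52766649, covers 4 FGF2 Homer peaks, 3 FGF2 enhancers, 4 AP1 sites and 1 conserved region, and ends before Spry1-E. A second, 52870730 to 52877812, is 7083 bp wide. Peaks of at least 7 kb were 2 of 47 around Spry1 (4.26%), 0 of 30 around Spry2 and 0.843% of all FGF2 MACS2 H3K27ac peaks. The 7 kb cut lies just under these 2 widths, so this share is not independent of them. Over 3 kb were 6 of 47 around Spry1 (12.8%) and 6 of 30 around Spry2 (20%), against 7.64% of all. In the Spry2 window the widest FGF2 peak was 4407 bp, 151987484 to 151991890, and held 5 AP1 sites and 0 enhancers.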
